A study of Mus musculus with 6 samples.

Results

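The epidermal growth factor (EGF) family ligands and their ErbB receptors were described in whole mouse lung 14 days after bleomycin, a DNA-damaging chemotherapy drug that scars the lung when it is given into the airways. The set holds 9 genes chosen by name, the ligands Areg, Ereg, Hbegf, Tgfa, Btc and Egf and the receptors Egfr, Erbb2 and Erbb3, of 12393 genes read on the arrays. Of these, 8 had a probe set named by their symbol alone (17 probe sets in all), and Areg had none and was not analysed here. Where several probe sets name a gene, the one brightest on average over the 6 arrays was used, and the rest are given beside it.

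All 6 mice are labelled as male wildtype C57BL/6J, 8 to 10 weeks old. The 3 control mice (A, B and C) had received saline and the 3 treated mice (D, E and F) bleomycin at 1 mg/kg in 50 µl of saline, and lungs were taken at day 14. The design text names oropharyngeal delivery and the sample labels an intratracheal one, so the route is not settled here. One Affymetrix MOE430A array was run per mouse on RNA of pulverised lung without trachea and major airways.

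The EGF family ligands are made as membrane-anchored precursors that metalloproteases cut free, Adam17 above all and Adam10 for some of them. Free ligand binds Egfr and in some cases Erbb4, the receptors pair with each other, and the signal runs through Ras and the MAP kinases or through phosphoinositide 3-kinase. Erbb2 has no known ligand and serves as the favoured partner, while Erbb3 binds neuregulins and has little kinase activity of its own. In the lung these receptors are best known in epithelial repair, and forced expression of Tgfa in the mouse airway epithelium is a known way to cause fibrosis.

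Values are RMA expression values in log2 units, so a difference of 1 is a 2-fold difference. Array medians lay between 7.37 and 7.41, and correlations across probe sets were 0.987 to 0.989 among saline arrays, 0.986 to 0.995 among bleomycin arrays and 0.965 to 0.985 between groups. The array labelled saline B went against its male label: Xist stood at 11.40 there and between 7.23 and 7.88 on the others, and the Y-linked gene Eif2s3y at 4.05 against 7.23 to 8.02. Bleomycin D lay farthest out on the first principal component (44.3, against 12.9 and 19.8 for E and F and -28.6 to -21.4 for saline). The 3-prime minus 5-prime difference of the Actb control probe sets, a measure of RNA integrity, was 1.14 to 1.71 in saline and 1.04 to 1.27 in bleomycin lungs, and that of Gapdh 0.88 to 1.46 and 0.81 to 1.10. Read depth does not apply to arrays, and the 3 arrays per group limit the precision.

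No member of the family passed the test of bleomycin against saline. With limma's moderated test and Benjamini-Hochberg adjustment over all 22626 probe sets, 0 of 8 members had an adjusted p under 0.05, where 5.60% of all genes did. None of the 17 member probe sets passed either, against 4.74% of all probe sets. At an unadjusted p under 0.05 there were 5 of 8 members (Ereg, Hbegf, Tgfa, Btc and Erbb3), where 22.7% of all genes reached that level. The bleomycin arrays lay wholly above the saline arrays for 2 members, Ereg and Hbegf (13.3% of all genes), and wholly below them for 3, Tgfa, Btc and Erbb3 (14.6% of all genes). The median difference of the members was -0.18 log2 units and its median size 0.31, beside -0.04 and 0.16 over all genes.

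**Figure D1:**
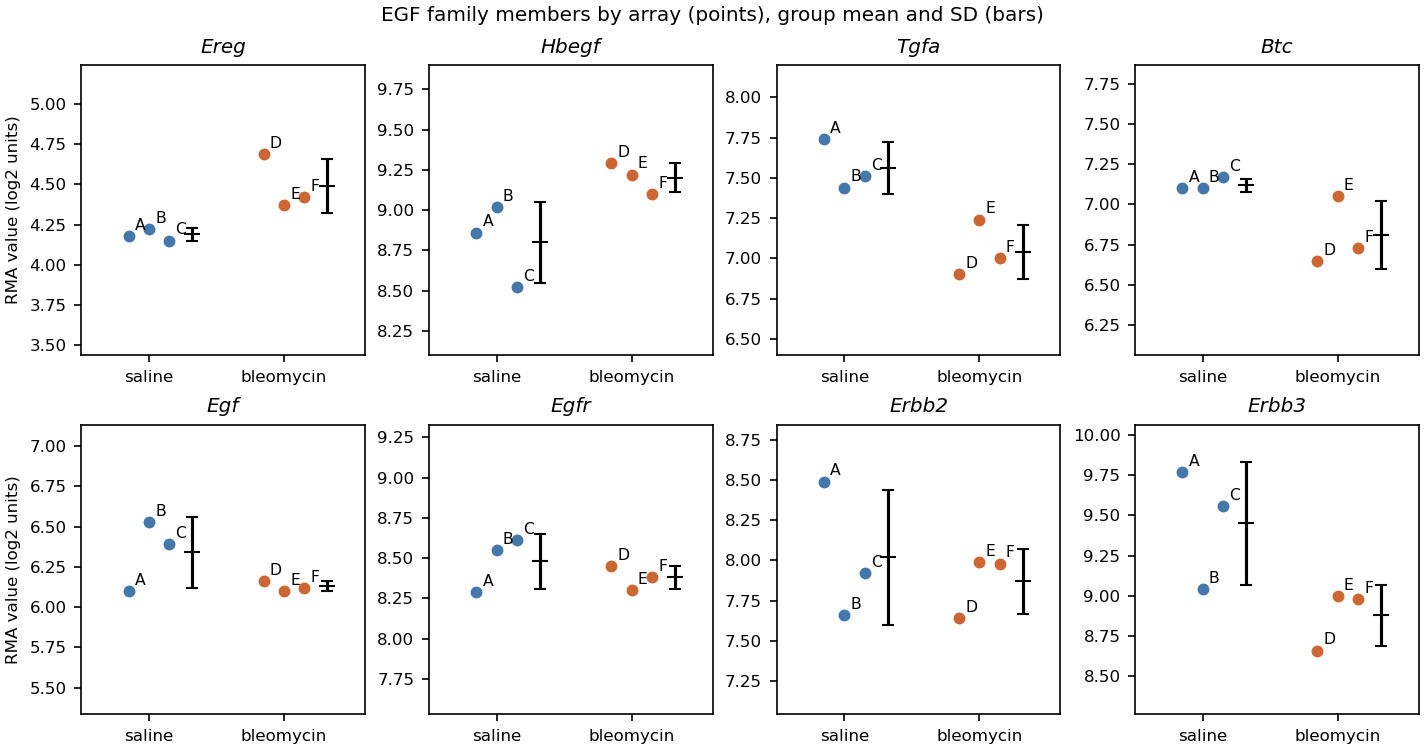
RMA value in log2 units (vertical axis, each panel spanning the same range) of the 8 measured members on each array, with saline A to C in blue, bleomycin D to F in orange and bars for the group mean and SD (n = 3 each). Ereg and Hbegf lie higher and Tgfa, Btc and Erbb3 lower on all 3 bleomycin arrays, Egf, Egfr and Erbb2 overlap between groups, and none of the 8 passed the adjusted test.

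Hbegf encodes heparin-binding EGF-like growth factor, a ligand of Egfr and Erbb4 that macrophages and epithelium release. Its probe set 1418350_at stood at 8.86, 9.02 and 8.52 on saline A, B and C and at 9.29, 9.22 and 9.10 on bleomycin D, E and F. The highest saline array was thus below the lowest bleomycin array. The means were 8.80 ± 0.25 and 9.20 ± 0.09 (SD, n = 3 each), a difference of 0.40 ± 0.14 log2 units (SE, limma adjusted p = 0.153), or 1.32-fold. A dimmer probe set of the gene, 1418349_at, gave 8.66, 8.57 and 8.36 in saline and 9.06, 9.01 and 8.96 in bleomycin lungs. Both probe sets separated the groups in the same direction. The second differed by 0.48 ± 0.11 (SE, limma adjusted p = 0.0533). With array weights it differed by 0.49 with a limma adjusted p of 0.0273, the only setting in which it passed. Its limma adjusted p was 0.0745 to 0.149 with an array left out and 0.172 with arrays centred on ribosomal protein genes.

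Ereg encodes epiregulin, also a ligand of Egfr and Erbb4. Its only probe set, 1419431_at, read 4.18, 4.22 and 4.15 in saline lungs and 4.69, 4.37 and 4.42 in bleomycin lungs. Bleomycin D was the highest, and all of these values were far below the array median. The difference was 0.31 ± 0.12 (SE, limma adjusted p = 0.181), and 0.21 without bleomycin D. Near the bottom of the scale a log2 value holds mostly background, so a fold is not read from it.

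Tgfa, which encodes transforming growth factor alpha, a ligand of Egfr, had the largest difference among the measured ligands when each was read by its brightest probe set. Probe set 1421943_at stood at 7.74, 7.44 and 7.51 on saline A, B and C and at 6.90, 7.24 and 7.00 on bleomycin D, E and F. All bleomycin arrays were lower. The means were 7.56 ± 0.16 and 7.04 ± 0.17 (SD, n = 3 each), and the difference of -0.52 ± 0.13 (SE) had a limma adjusted p of 0.0664, with a 95% interval of -0.82 to -0.22. The other probe sets did not share its size: 1450421_at differed by 0.02 ± 0.14 (SE, limma adjusted p = 0.942) and 1421942_s_at by -0.20 ± 0.14 (SE, limma adjusted p = 0.46), with overlapping groups in both. In the mean of the 3 probe sets the difference of Tgfa was -0.23 (limma adjusted p = 0.217), smaller in size than the 0.44 of Hbegf in the mean of its probe sets (limma adjusted p = 0.0635), so the order of these ligands turned with the way a gene was read.

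Btc encodes betacellulin, which binds Egfr and Erbb4. Its brightest probe set, 1435541_at, gave 7.10, 7.10 and 7.17 in saline and 6.65, 7.05 and 6.73 in bleomycin lungs. The saline arrays were nearly level, and bleomycin E came close to them. The difference was -0.31 ± 0.13 (SE, limma adjusted p = 0.201). The second probe set, 1421161_at, lay between 4.28 and 4.41 on all 6 arrays with a difference of -0.01, and the mean of both differed by -0.16. In the RefSeq table of GRCm38.p6, Ereg, Areg and Btc follow one another on chromosome 5 with 0 other protein-coding genes between them. Each set against its own saline arrays, Ereg was higher and Btc, by its brightest probe set, lower on every bleomycin array.

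Egf, the ligand after which the family is named, was read by 1418093_a_at at 6.10, 6.53 and 6.39 in saline and 6.16, 6.10 and 6.12 in bleomycin lungs. Saline A lay among the bleomycin arrays, so the groups overlapped. The difference was -0.21 ± 0.13 (SE, limma adjusted p = 0.381).

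Read by their brightest probe sets, Tgfa and Btc were the ligands that stood lower on all 3 bleomycin arrays. Their other probe sets overlapped between groups, and neither gene passed the adjusted test. Both ligands act through Egfr. The 250 bases before the start site of these ligands and of Egfr are therefore shown, 5′ to 3′ on the gene's strand, from RefSeq on GRCm38.p6. The windows are chr6:86194972-86195221 on the plus strand for Tgfa, chr5:91402995-91403244 on the minus strand for Btc and chr11:16751953-16752202 on the plus strand for Egfr. Capitals mark a GC box, the letters GGGCGG or CCGCCC.
Tgfa: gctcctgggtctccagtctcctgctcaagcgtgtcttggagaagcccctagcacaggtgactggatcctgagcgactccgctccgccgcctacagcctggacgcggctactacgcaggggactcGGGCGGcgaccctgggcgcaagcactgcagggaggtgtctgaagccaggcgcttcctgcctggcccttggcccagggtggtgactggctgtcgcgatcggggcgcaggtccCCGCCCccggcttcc
Btc: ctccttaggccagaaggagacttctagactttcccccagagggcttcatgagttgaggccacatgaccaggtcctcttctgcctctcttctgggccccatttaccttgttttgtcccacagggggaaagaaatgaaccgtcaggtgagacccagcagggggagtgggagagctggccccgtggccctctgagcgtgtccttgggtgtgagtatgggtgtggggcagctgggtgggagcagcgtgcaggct
Egfr: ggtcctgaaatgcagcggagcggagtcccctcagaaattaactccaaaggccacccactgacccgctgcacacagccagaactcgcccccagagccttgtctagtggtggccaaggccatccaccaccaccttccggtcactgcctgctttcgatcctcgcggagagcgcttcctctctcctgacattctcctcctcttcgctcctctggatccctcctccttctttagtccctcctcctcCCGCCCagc

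The upstream window of Tgfa held 2 GC boxes, that of Egfr 1 and that of Btc 0, and 32.9% of 27025 genes with such a window held at least 1. None of the 3 windows held a TATA box (TATAAA or TTTATA, 13.0% of genes), a cyclic AMP response element (TGACGTCA, 1.62%), an AP-1 site (TGAGTCA or TGACTCA, 4.43%) or an E-box (CACGTG, 6.05%), each searched on both strands. G and C made up 69.2% of the window in Tgfa, 60.8% in Egfr and 59.6% in Btc, against a median of 52.0% over genes. Of the 9 members 6 had a promoter in the table. A match here describes letters, and no binding was measured.

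Among the receptors, Erbb3 had the largest difference. Its probe set 1434606_at stood at 9.77, 9.04 and 9.56 on saline A, B and C and at 8.66, 9.0 and 8.98 on bleomycin D, E and F. All bleomycin arrays were lower, but saline B and bleomycin E lay next to each other. The means were 9.45 ± 0.38 and 8.88 ± 0.19 (SD, n = 3 each), and the difference of -0.57 ± 0.19 (SE) had a limma adjusted p of 0.134, with a 95% interval of -1.01 to -0.13. Without saline B, the array that went against its label, the difference was -0.78 and the limma adjusted p 0.0423. That was the single fit with an array left out in which any of the 8 members passed (3.26% of all genes passed in that fit). Saline B also had lower 3-prime minus 5-prime differences (Actb 1.14, Gapdh 0.88) than saline A (1.58, 1.46) and C (1.71, 1.39). Without saline B the groups did not overlap on that measure, and its part in the Erbb3 values was not tested. The dimmer probe set 1452482_at differed by 0.03 ± 0.22 (SE, limma adjusted p = 0.952), and the mean of both probe sets by -0.27.

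Erbb3 is known as an epithelial receptor in lung, so epithelial marker levels are given beside it. Of all genes, 3.70% were called higher and 1.90% lower. The mean log2 level of 6 club and ciliated cell markers was 11.63 to 11.79 in saline and 11.23 to 11.36 in bleomycin lungs, and 2 of them fell (Tppp3 and Cyp2f2). Over 9 measured alveolar type 2 markers it was 12.26 to 12.35 and 11.79 to 12.29 with 0 called. Over 7 type 1 markers it was 11.48 to 11.77 and 11.09 to 11.55, where Hopx fell, called in 1 of its 2 probe sets. The mean level of 8 transitional epithelial markers was higher, at 9.20 to 9.34 in saline and 9.92 to 9.95 in bleomycin lungs. Of the 8, 6 lay wholly above the saline arrays on the bleomycin arrays (13.3% of all genes), and 2 rose (Lgals3 and Sfn). The part of these markers in the Erbb3 values was not tested, and in homogenised lung fewer cells of a type and less RNA per cell cannot be told apart.

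Egfr, the receptor of all the ligands above, was read by 5 probe sets. The brightest, 1460420_a_at, stood at 8.29, 8.55 and 8.61 in saline and 8.45, 8.30 and 8.38 in bleomycin lungs, with every bleomycin value inside the saline range. It differed by -0.11 ± 0.12 (SE, limma adjusted p = 0.651), with a 95% interval of -0.38 to 0.17. The other 4 probe sets were below the median of all probe sets and differed by -0.29 to -0.04. Only 1451530_at separated the groups, at 5.90, 6.08 and 5.98 against 5.87, 5.70 and 5.76, and its limma adjusted p was 0.303.

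Erbb2, the shared partner receptor, was read by 1424919_at at 8.49, 7.66 and 7.92 in saline and 7.64, 7.99 and 7.98 in bleomycin lungs. Saline A was the highest of all 6 arrays, and saline B and C lay within the bleomycin range. The difference was -0.16 ± 0.21 (SE, limma adjusted p = 0.713), and it turned to 0.08 without saline A.

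**Figure D2:**
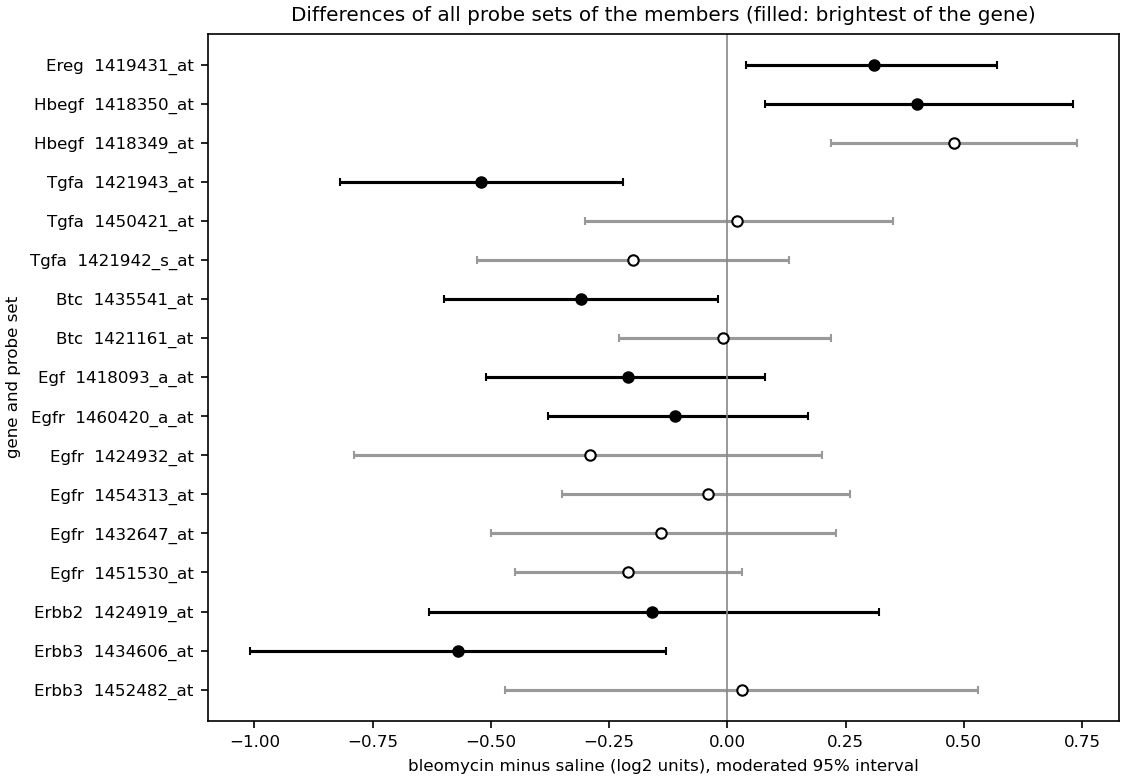
Bleomycin minus saline in log2 units (horizontal axis) for each of the 17 probe sets of the members (vertical axis), with limma's moderated 95% interval as bars and the brightest probe set of a gene filled. The intervals of both Hbegf probe sets lie above 0, while the probe sets of Tgfa, Btc and Erbb3 differ, with the brightest below 0 and others around it.

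The moderated 95% interval lay within 1 log2 unit of 0 for 7 of the 8 members, and the exception was Erbb3, whose interval reached -1.01. For Egfr the interval end farthest from 0 corresponds to a 1.3-fold difference, for Erbb2 to 1.55-fold, for Hbegf to 1.66-fold and for Tgfa to 1.77-fold. These bounds hold for the probe set read and for the spread among these 6 mice. Leaving out each array in turn kept the direction of 7 members in all 6 fits, and that of Erbb2 in 5. The range over these fits was widest for Erbb2, from -0.34 without saline B to 0.08 without saline A, followed by Erbb3, from -0.78 without saline B to -0.42 without saline A. Hbegf ranged from 0.26 without saline C to 0.51 without saline B.

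**Figure D3:**
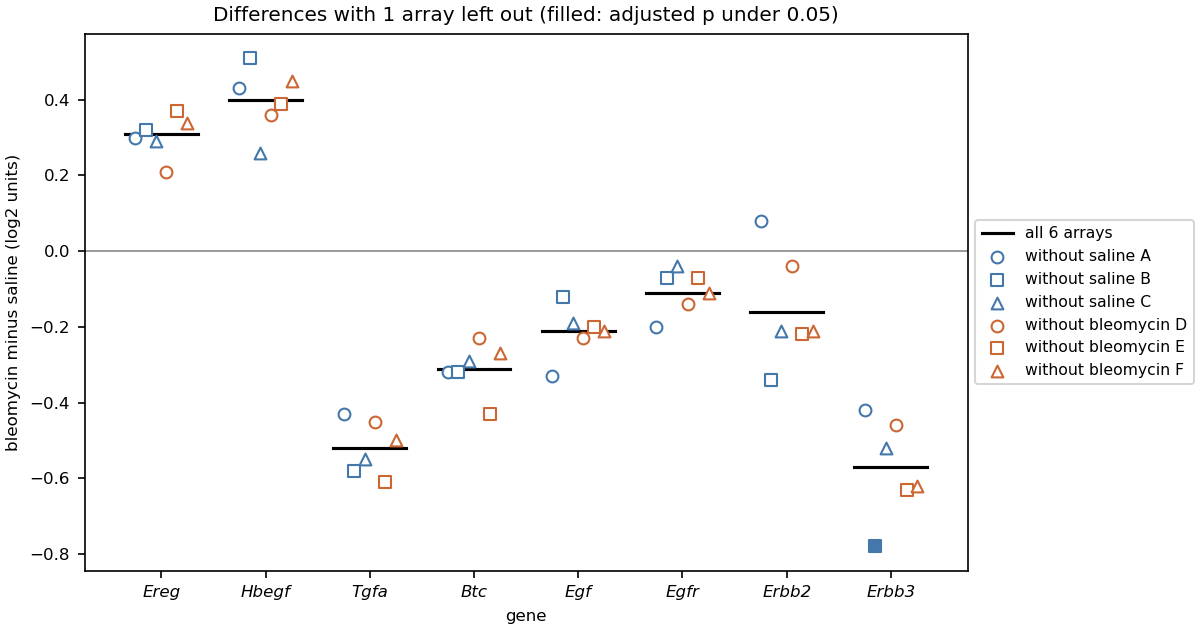
Bleomycin minus saline in log2 units (vertical axis) for the 8 members with all 6 arrays (black line) and with each array left out (blue, a saline array; orange, a bleomycin array), filled where the adjusted p is under 0.05. The single filled point is Erbb3 without saline B, and Erbb2 crosses 0 without saline A.

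Outside the 9 members, 73 genes of the pathway in 5 lists were measured, and 3 rose (3.70% of all genes did) and 1 fell (1.90% of all genes). Their median difference was 0.01 log2 units. The 4 called genes were Adam17, Adam8 and Reck among 11 measured genes of ligand shedding and trafficking, and Egr2 among 19 immediate-early and ETS target genes. The remaining lists, 4 other ligands and receptors, 15 feedback inhibitors and 24 adaptors and core kinases, had 0 called members by limma. At an unadjusted limma p under 0.05 they had 0, 6 and 6, where 22.7% of all genes reached that level. The shedding list had 7 and the target list 5.

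**Figure D4:**
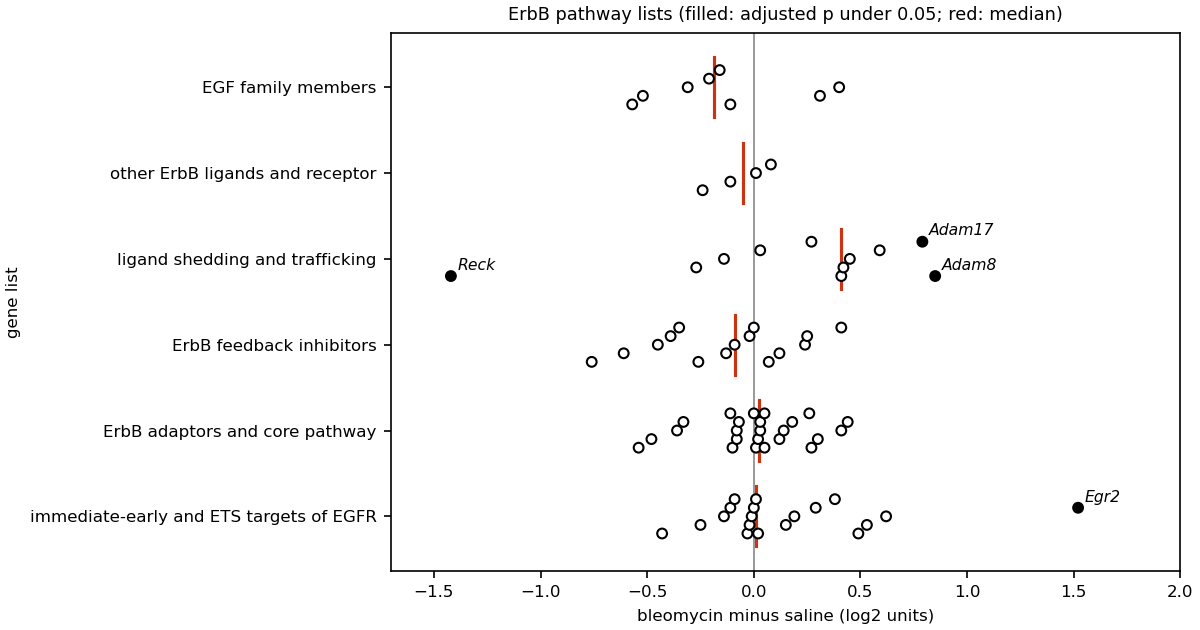
Bleomycin minus saline in log2 units (horizontal axis) of every measured gene, by gene list (vertical axis), with the list median as a red line and genes with an adjusted p under 0.05 filled and named. Adam17, Adam8 and Egr2 rose and Reck fell, the shedding list has a median of 0.41, the EGF family members have a median of -0.18, and the other 4 lists have medians between -0.09 and 0.02.

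Adam17, the main sheddase of Tgfa, Hbegf and Ereg, rose 1.73-fold. Its probe set 1421858_at stood at 9.32, 8.84 and 9.47 in saline and 10.17, 9.89 and 9.93 in bleomycin lungs. The groups were well apart, with saline B the lowest array. The difference was 0.79 ± 0.17 (SE, limma adjusted p = 0.0393). Of its other probe sets, 1421857_at rose by 0.71 (limma adjusted p = 0.0341), while 1421859_at differed by 0.65 (limma adjusted p = 0.0659). The call of Adam17 was kept without saline C and lost with any other array left out, where its limma adjusted p was 0.0949 (A), 0.0658 (B), 0.105 (D), 0.0634 (E) and 0.101 (F), and it was also lost with arrays centred on ribosomal protein genes (0.0797) or normalized again (0.0505).

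Adam8, a metalloprotease of myeloid cells, rose 1.81-fold, from 8.24 ± 0.26 to 9.10 ± 0.27 (SD, n = 3 each, limma adjusted p = 0.0341). Saline arrays read 8.08, 8.10 and 8.55 and bleomycin arrays 9.41, 8.93 and 8.96. Its call was lost without saline A (limma adjusted p = 0.107), saline B (0.0877), bleomycin D (0.0741) or bleomycin F (0.0751). Of the 7 measured ADAM genes of the list, 6 lay wholly above the saline arrays on the bleomycin arrays (13.3% of all genes). Adam10 was among them at 9.85, 9.46 and 9.56 against 10.19, 10.01 and 9.91, without passing the test (limma adjusted p = 0.13).

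Reck, a membrane-anchored inhibitor of metalloproteases that include Adam10, fell by 1.42 ± 0.20 log2 units (SE, limma adjusted p = 0.00786). It stood at 10.11, 10.18 and 9.93 in saline and at 8.19, 8.76 and 9.01 in bleomycin lungs. Bleomycin D was lowest, and without it the difference was -1.19. Without saline A the adjusted p was 0.0554. Timp3, the tissue inhibitor that acts on Adam17, differed by 0.03 ± 0.18 (SE, limma adjusted p = 0.945).

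Egr2, a zinc finger transcription factor of the early growth response family that is also expressed in macrophages, rose 2.88-fold. Its probe set 1427683_at read 6.40, 6.49 and 6.28 in saline and 8.38, 7.82 and 7.55 in bleomycin lungs, and 1427682_a_at rose by 1.13 (limma adjusted p = 0.0033). The call was kept in all 6 fits with an array left out (adjusted p 0.00396 to 0.0444). Its relative Egr1, a classical early target of growth factor receptors, stood at 10.99, 9.26 and 9.71 in saline and at 10.34, 9.27 and 9.94 in bleomycin lungs. The groups overlapped, and the difference was -0.14 ± 0.43 (SE, limma adjusted p = 0.886).

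Errfi1 encodes a feedback inhibitor that binds the kinase domain of ErbB receptors. Read by brightest probe sets, it had the largest difference among the feedback genes. It read 11.37, 11.85 and 10.90 in saline and 10.91, 10.87 and 10.05 in bleomycin lungs. Saline C was within the bleomycin range, and the difference of -0.76 ± 0.29 (SE) had a limma adjusted p of 0.171. A dimmer probe set of Errfi1, 1419816_s_at, differed by -0.42 ± 0.29 (SE, limma adjusted p = 0.446), also with overlapping groups. In the mean of both the difference was -0.59 (limma adjusted p = 0.253). Dusp6, a phosphatase of the MAP kinase Erk, differed by 0.25 ± 0.18 (SE, limma adjusted p = 0.469). The bleomycin arrays lay wholly below the saline arrays for 4 of 15 feedback genes (14.6% of all genes), Spry1 (-0.39), Spry2 (-0.61), Spred2 (-0.45) and Socs4 (-0.35), with limma adjusted p between 0.11 and 0.184. They lay wholly above for 1 (13.3% of all genes), Ptpn1 (0.41, limma adjusted p = 0.164). The median difference of the 15 was -0.09.

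Of the adaptors and kinases, Sos2, an exchange factor that activates Ras, had the largest difference (-0.54 ± 0.14, SE, limma adjusted p = 0.0728), with 9.79, 9.65 and 9.71 in saline and 8.94, 9.46 and 9.12 in bleomycin lungs. Without bleomycin E its limma adjusted p was 0.0343, and with any other array left out it was 0.119 to 0.195. Among other ligands and receptors, Epgn, the ligand epigen, differed by -0.24 ± 0.14 (SE, limma adjusted p = 0.376). Erbb4 was read near the bottom of the scale, between 4.0 and 4.1 on all arrays, so the arrays give little information on it.

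**Figure D5:**
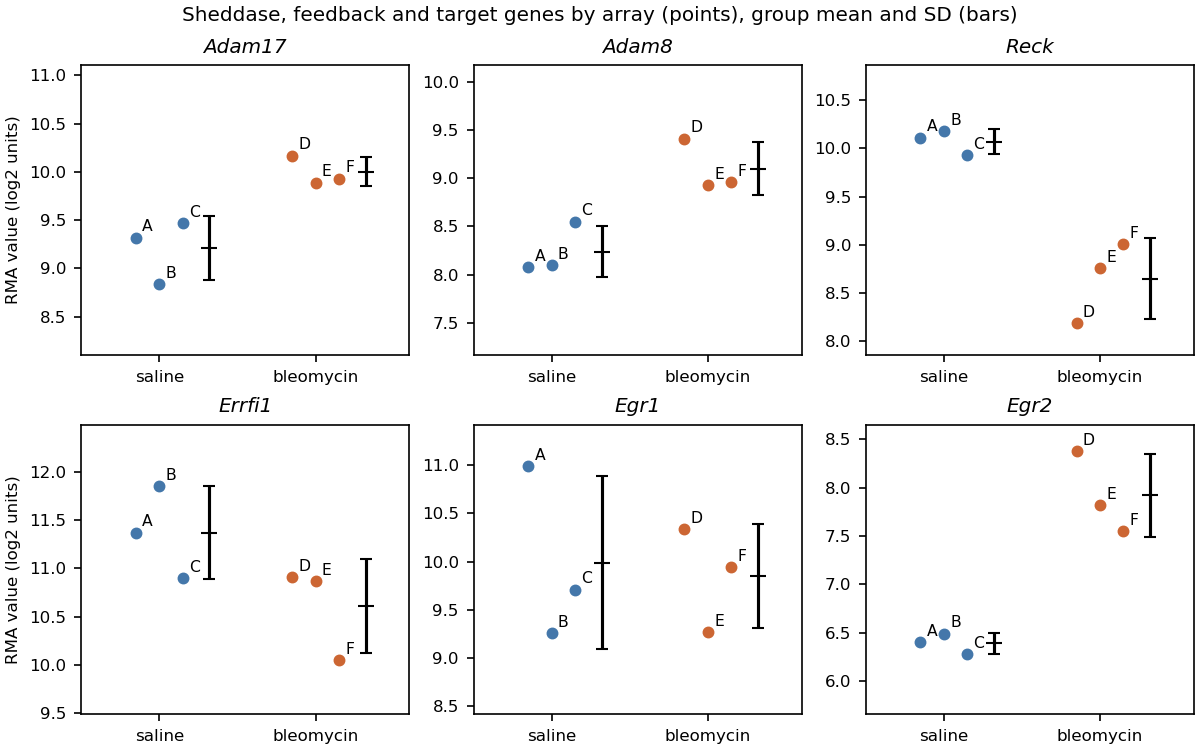
RMA value in log2 units (vertical axis, the same span in each panel) of 6 pathway genes on each array, with saline A to C in blue, bleomycin D to F in orange and bars for the group mean and SD (n = 3 each). Adam17, Adam8 and Egr2 are higher and Reck lower on all bleomycin arrays, while Errfi1 and Egr1 overlap between the groups.

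Macrophage marker levels are given beside Hbegf, Adam8, Adam17 and Egr2. The mean log2 level of 10 macrophage markers was 8.80 to 9.17 in saline and 10.16 to 10.46 in bleomycin lungs. Of the 10, 1 lay below the median of all probe sets, 6 rose (3.70% of all genes) and 0 fell (1.90% of all genes). C1qb rose 10.7-fold, Cd68 6.43-fold and Itgax 3.5-fold, while Lyz2 differed by 0.14. The brightest probe set of Csf1r differed by 0.27 (limma adjusted p = 0.282), but 2 of the 3 probe sets of Csf1r were called. The part of macrophages in the values of Hbegf, Adam8, Adam17 and Egr2 was not tested.

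Likeness was read as the root mean square distance between values centred on the saline mean, over 6 arrays, with each gene read by its brightest probe set. The genes closest to Tgfa were Ubr1 (0.037 log2 units), Rab33b (0.041) and Pla2g1b (0.044), beside a median of 0.398 over all genes. The genes closest to Erbb3 were Zranb1 (0.090), Tek (0.093) and Hspa12b (0.096), beside a median of 0.479. The closest of all genes lie below the median by selection, so the medians give only the scale. The other probe sets of Tgfa and Erbb3 were not compared in this way.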

How the data were processed

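The authors deposited log2 values, 1 per probe set, from RMA (named in the submitters' processing notes) with quantile normalization (named in the design text). That they are in log2 was read from their range, which ends at 14.42. Scanner files and detection calls were not used here. The table held 22690 probe sets, of which 64 controls were left out. GEO's platform annotation gave 1 symbol to 20380 of the rest, several to 691 and none to 1555, and 20351 were updated by Entrez ID through the RefSeq table of GRCm38.p6. A gene was read through its brightest probe set.

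Groups were compared in R 4.3.3 with limma 3.58.1 (lmFit, eBayes, no covariates), with Benjamini-Hochberg adjustment over all probe sets and a threshold of 0.05. The fit was tested on simulated data with changes of at least 1 log2 unit, so that test does not cover smaller differences. Figures used matplotlib 3.10.9. The members and lists were chosen with earlier results of these data known. Named were all members, up to 5 called genes or the largest difference per pathway list, 6 fixed pathway genes (of which Nrg1 had no named probe set), the 2 brightest and up to 3 called genes per marker list, and 3 genes of closest pattern to the leading ligand and receptor. Adam10, Timp3, Spry1, Spry2, Spred2, Socs4 and Ptpn1 were chosen after their values were seen. Where a marker list is given by its called genes the brightest may be left unnamed.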

Additional observations from a re-analysis of the deposited data

How the results depend on the processing

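Of 100 recomputed differences of the 8 members, 99 stayed on the same side of the threshold, and the exception was Erbb3 without saline B (-0.78). Some of the 100 could not change. The probe set of largest spread was also the brightest for Ereg, Tgfa, Btc, Egf, Erbb2 and Erbb3, so for them it repeated the main fit. The mean of probe sets left the differences of Ereg, Egf and Erbb2 as they were, because each has 1 probe set. The number of members called was 0 with all arrays and 0 to 1 with an array left out. For member probe sets it was likewise 0 to 1, and it was 1 with array weights (Hbegf). The count of genes called, 694, was 185 to 550 with an array left out, 163 at an adjusted p of 0.01 and 240 with at least 1 log2 unit required. It was higher with array weights (940), the mean of a gene's probe sets (822) and the probe set of largest spread (762). With arrays normalized again it was 717, and with a trended robust variance prior 707. The 4 called genes of the pathway lists became 1 to 5 with an array left out, 2 at an adjusted p of 0.01 and 2 with at least 1 log2 unit. They became 6 with array weights, 5 with the mean of a gene's probe sets and 6 with the probe set of largest spread. Their number stayed at 4 with arrays normalized again and with the trended robust variance prior. A fit with fewer arrays has less power. Centring on 25 ribosomal protein genes lowered all differences by 0.05 log2 units and changed no member's call or direction. The filter that kept only probe sets brighter than the median removed Ereg, Tgfa, Btc and Egf, so no value was had for them there. No paired analysis was possible because the array letters are unique to each mouse. Signal over background could not be examined without scanner files, which limits what the dim probe sets of Ereg, Erbb4 and the second Btc probe set show.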

Other observations

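Levels of other cell types that can release or receive these ligands were as follows. Of all genes, 3.70% were called higher and 1.90% lower. The mean log2 level of 8 mast cell and basophil markers was 6.26 to 6.48 in saline and 6.18 to 6.29 in bleomycin lungs with 0 called, and 7 of them lay below the median of all probe sets. Kit, the stem cell factor receptor, differed by -0.05 and the tryptase Tpsb2 by -0.01. Over 10 markers of T cells, regulatory T cells and type 2 innate lymphoid cells it was 6.58 to 6.75 and 6.53 to 6.62, and 8 lay below that median. Rora, a nuclear receptor also expressed outside lymphocytes, fell by 0.66 (limma adjusted p = 0.0478), called in 1 of its 3 probe sets. The 6 endothelial markers stood at 10.39 to 10.75 and 10.22 to 10.29, and Kdr, the main receptor for vascular endothelial growth factor, fell by 0.86 (limma adjusted p = 0.0148). The 8 fibroblast and smooth muscle markers stood at 9.95 to 10.39 and 10.14 to 10.57, where Col1a1 (called in 1 of its 2 probe sets) and Col1a2 rose and Tcf21 fell. The 5 measured blood and neutrophil markers stood at 7.40 to 8.16 and 7.25 to 8.27 with 0 called.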
